A study of Homo sapiens with 4 samples.

Results

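The genes described here are regulators and core factors of pre-mRNA splicing. They were chosen by gene symbol among the protein-coding genes of the deposited table, which gave 54 of its 58735 genes. They comprise 12 SRSF genes, 23 HNRNP genes, 9 SF3A and SF3B genes, 4 CLK genes, 3 SRPK genes, 2 TRA2 genes and RSRP1. Of the 54, 52 passed the filter on low counts. SRSF12 and the read-through gene HNRNPUL2-BSCL2 did not, with 0 counts in 3 libraries and 3 and 2 counts in the other.

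The libraries came from SUP-M2, an established human line of ALK-positive anaplastic large cell lymphoma. Group 1, shscramble, held 2 libraries with a scrambled short hairpin RNA and is labelled control. Group 2, shGOLM1, held 2 libraries with short hairpin RNA against GOLM1, a Golgi membrane protein, and is labelled a knockout. The hairpin sequences and the origin of the replicates (separate cultures or not) are points not given in the sources used here, so the tests measure only the spread between these libraries. GOLM1 itself (ENSG00000135052, chromosome 9, 86026146 to 86100173 on GRCh38, as all positions here) had 212 and 213 CPM (the usual depth-scaled counts, with library totals adjusted by TMM factors) with the scrambled hairpin. It had 69.6 and 69.5 CPM with the hairpin against it, a log2 fold change of -1.61 (SE 0.27, edgeR adjusted p = 0.42, DESeq2 adjusted p = 0.0502).

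Splicing removes introns through the spliceosome. SR proteins (SRSF and TRA2) bind exons mostly as activators, and hnRNP proteins often oppose them or package the transcript. The SF3A and SF3B complexes belong to the U2 particle that recognises the branch point. CLK and SRPK kinases phosphorylate the serine and arginine repeats of SR proteins, CLKs mainly in the nucleus and SRPKs mainly in the cytoplasm. Many SR and hnRNP genes, and CLK1, control their own output through unproductive splice forms. The deposited counts are sums per gene, so productive and unproductive forms are not separated in any value below.

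Library totals ran from 27544171 to 31972153 counts. All 7 listed markers of this lymphoma, among them ALK and TNFRSF8 (CD30), were above 1 CPM in every library, but their levels were not stable. TNFRSF8 was at 634 and 614 CPM in shscramble, against 539 and 88.4 CPM in shGOLM1. ALK was at 340 and 316 CPM against 327 and 170 CPM. PRF1 went the other way, at 2.91 and 2.71 CPM against 621 and 145 CPM. BATF3 was lower in both shGOLM1 libraries, and GZMB, IL2RA and NPM1 lay on either side of the shscramble pair. The part of these differences in the results below was not tested. Of 9 T lineage markers, 4 (CD4, CD247, TRAC and CD2) were above 1 CPM in every library, and CD3G and CD8A had 0 counts throughout. The 9 summed to 221 and 212 CPM in shscramble and to 358 and 492 CPM in shGOLM1, mostly CD4, and the part of this difference in the results below was not tested. The 5 B cell markers summed to 0.180 to 0.659 CPM, and the 6 epithelial, fibroblast and endothelial markers to 0.460 to 3.60 CPM. Of 5 myeloid markers, CSF1R was above 200 CPM in all 4 libraries and the others were under 1 CPM. The library shGOLM1 replicate 2 stood apart. Mitochondrially encoded genes took 0.456% of its counts, against 1.95% to 2.38% in the others, and ribosomal-protein genes took 14.7%, against 6.57% to 8.77%. MALAT1, also listed for RNA quality, took 0.00168% and 0.0024% of counts in shscramble, against 0.0117% and 0.0585% in shGOLM1 replicates 1 and 2. Its share was thus higher in both shGOLM1 libraries. The part of these differences in the results below was not tested. In bulk RNA a change in the share of cells and a change in RNA per cell cannot be told apart.

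The 4 CLK genes and RSRP1 were several-fold higher in shGOLM1 replicate 2 and near or below the shscramble level in replicate 1. At least 2-fold higher values in replicate 2 were common, in 23.6% of all genes. The promoters of 3 of them are shown because these genes shared that pattern. Each run is the 250 bases before the RefSeq start (GRCh38.p14), 5′ to 3′ along the gene. Capitals mark the GC box GGGCGG and the letters ACGTG, found in hypoxia-response elements, on either strand, with overlapping matches joined. The CACGTG marked in CLK4 reads the same on either strand and holds 2 overlapping matches. The CLK1 window is chr2:200864659-200864908, the CLK4 window chr5:178627051-178627300 and the RSRP1 window chr1:25338255-25338504, all on the minus strand.
CLK1: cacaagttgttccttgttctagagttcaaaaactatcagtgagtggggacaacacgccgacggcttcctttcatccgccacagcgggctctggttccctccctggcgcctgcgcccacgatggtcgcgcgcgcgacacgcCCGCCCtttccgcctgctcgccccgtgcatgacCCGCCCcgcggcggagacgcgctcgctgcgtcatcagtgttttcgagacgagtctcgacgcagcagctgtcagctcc
CLK4: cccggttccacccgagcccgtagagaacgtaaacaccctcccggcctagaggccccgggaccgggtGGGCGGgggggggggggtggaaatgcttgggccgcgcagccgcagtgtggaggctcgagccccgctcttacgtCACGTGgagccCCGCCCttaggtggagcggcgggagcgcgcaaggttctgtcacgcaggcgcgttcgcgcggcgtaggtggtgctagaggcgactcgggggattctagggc
RSRP1: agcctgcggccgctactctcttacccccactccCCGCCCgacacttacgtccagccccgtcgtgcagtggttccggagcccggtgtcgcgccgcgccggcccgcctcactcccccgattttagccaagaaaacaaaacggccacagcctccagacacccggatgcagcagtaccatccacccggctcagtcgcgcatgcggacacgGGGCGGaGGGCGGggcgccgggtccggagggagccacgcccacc
The RefSeq start lies 86 bases from the deposited gene start for CLK1 and 41 bases, outside the deposited gene, for RSRP1, but 3565 bases for CLK4. For CLK2 and CLK3, whose promoters are counted but not shown, the distances are 4987 and 9872 bases. At such distances the windows of CLK2, CLK3 and CLK4 need not hold the start used in these cells. The GC box was in 4 of the 5 promoters of CLK1 to CLK4 and RSRP1, in 34 of the 49 splicing-regulator promoters in the table and in 42.6% of all 35114 promoters. The median share of G and C letters was 65.6% over the 49 promoters and 58.0% over all. The part of this difference in the GC box counts was not tested. ACGTG was in CLK2 and CLK4 among the 5, in 19 of the 49, and in 18.5% of all. The cyclic AMP response element TGACGTCA was in 0 of the 49 and 1.65% of all, and the heat shock letters GAANNTTC in 0 of the 5, 3 of the 49 and 5.78% of all. The CCAAT box was in CLK3 alone of the 5, in 18 of the 49 and in 32.0% of all. TATAAA was in 0 of the 5, 6 of the 49 and 10.7% of all. These are matches of letters in a window and not measured sites, and ACGTG alone does not single out a hypoxia-response site.

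CLK1, a kinase of SR proteins (ENSG00000013441, chromosome 2, 200853009 to 200864744), was at 39.8 and 34 CPM in shscramble, against 35.9 and 457 CPM in shGOLM1 replicates 1 and 2. Replicate 1 thus lay between the shscramble libraries, and replicate 2 was 12.4-fold above their mean. CLK3 (chromosome 15, 74598500 to 74645414) was at 37.9 and 39.9 CPM in shscramble, against 33.3 and 298 CPM in shGOLM1. CLK4, the closest relative of CLK1 (chromosome 5, 178602664 to 178630615), was at 10.8 and 14.3 CPM against 11.0 and 66 CPM. CLK2 (chromosome 1, 155262868 to 155278491) was at 53.5 and 59.6 CPM in shscramble, against 38.4 and 154 CPM in shGOLM1, so that its shGOLM1 libraries lay on either side. RSRP1, which encodes a protein rich in arginine and serine (ENSG00000117616, chromosome 1, 25242237 to 25338213), was at 22.1 and 19.9 CPM in shscramble, against 20.3 and 329 CPM in shGOLM1, 15.7-fold above the shscramble mean in replicate 2. In each of these 5 genes the groups overlapped, because replicate 1 was at or below the shscramble level.

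**Figure D1:**
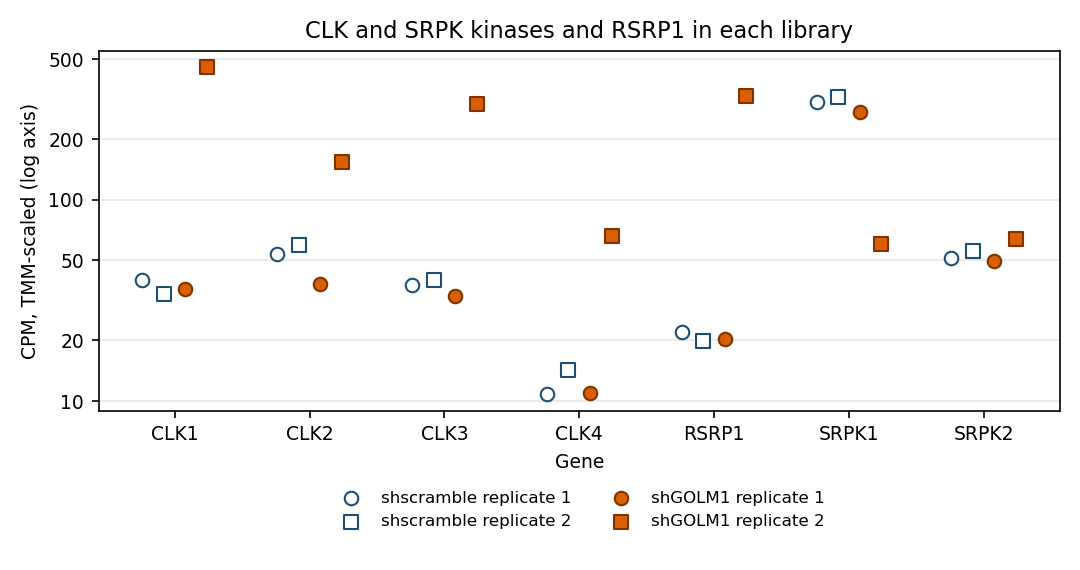
CPM on a log axis for the 4 CLK genes, RSRP1, SRPK1 and SRPK2, with 1 point per library (open symbols shscramble, filled symbols shGOLM1, circles replicate 1, squares replicate 2). The filled square stands above all other points for CLK1 to CLK4 and RSRP1, at 457 CPM for CLK1, and below them for SRPK1, at 60.4 CPM.

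With both shGOLM1 libraries, none of the 5 passed edgeR's quasi-likelihood test over 14166 genes. The log2 fold change was 2.74 (SE 1.22, adjusted p = 0.455) for CLK1, 3.06 (SE 1.33, adjusted p = 0.448) for RSRP1 and 2.09 (SE 1.05, adjusted p = 0.483) for CLK3. It was 1.62 (SE 0.90, adjusted p = 0.506) for CLK4 and 0.76 (SE 0.71, adjusted p = 0.662) for CLK2. DESeq2 called CLK1 (adjusted p = 0.0392) and RSRP1 (adjusted p = 0.0218) as higher and no other splicing regulator, where it called 3.43% of all genes higher and 0.267% lower. The authors' deposited table gives CLK1 an adjusted p of 0.0414 and RSRP1 one of 0.023. Its log2 fold changes, 2.71 for CLK1 and 3.03 for RSRP1, equal those of DESeq2 here. The authors' values are thus not a separate result from the DESeq2 calls. Without shGOLM1 replicate 1, all 5 passed edgeR as higher, with adjusted p from 2.05e-13 for RSRP1 to 1.57e-08 for CLK2, in a fit that called 33.3% of all genes higher and 34.1% lower. Without shGOLM1 replicate 2, CLK1 had a log2 fold change of -0.057 (edgeR adjusted p = 0.759) and RSRP1 one of -0.066 (edgeR adjusted p = 0.751). CLK2 then passed as lower, at -0.58 (edgeR adjusted p = 0.000833). Each of these fits holds a single shGOLM1 library, which is assumed to vary like the shscramble pair, and compares libraries rather than conditions.

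SRPK1, the main cytoplasmic SR kinase (chromosome 6, 35832966 to 35921342), went the other way in the same library. It was at 307 and 325 CPM in shscramble, against 274 and 60.4 CPM in shGOLM1, so the shGOLM1 pair lay below the shscramble pair and replicate 2 was 5.23-fold lower. Its log2 fold change was -0.92 (SE 0.76, edgeR adjusted p = 0.63). SRPK2 stayed close to its shscramble level, at 51.5 and 55.5 CPM against 49.5 and 64.1 CPM. SRPK3, known mainly from muscle, was barely detected, at 0.301 to 1.01 CPM over the 4 libraries.

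Ratios within a library do not depend on the scaling between libraries. The ratio of CLK1 to SRPK1 counts was 0.130 and 0.105 in shscramble, 0.131 in shGOLM1 replicate 1 and 7.57 in replicate 2. Per length, the authors' FPKM values (fragment counts scaled by gene length and library size) summed over the 4 CLK genes were 0.472 and 0.464 times the sum over the 3 SRPK genes in shscramble, 0.417 times in shGOLM1 replicate 1 and 7.98 times in replicate 2. The SRSF sum was 21.4 and 20.2 times the CLK sum in shscramble, 18.8 times in shGOLM1 replicate 1 and 3.23 times in replicate 2. In these ratios shGOLM1 replicate 1 resembled the shscramble libraries and replicate 2 did not. The ratios were chosen after the values were seen.

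Over all 52 tested splicing regulators, edgeR called 0 higher and 0 lower, as it did over all genes, where the share called was 0% in each direction. At an unadjusted p under 0.05 there were 0 of the 52, against 8.20% of all genes higher and 3.58% lower, and limma-voom called 0. The shGOLM1 pair lay wholly below the shscramble pair for 25 of the 52, where 26.5% of all tested genes did so. It lay wholly above for 1 of the 52, where 25.2% of all genes did so. That gene was HNRNPH1, which the rule for named genes did not select. Measured against the shscramble mean, the 52 had a median log2 difference of -0.34 (shGOLM1 replicate 1) and of -0.20 (replicate 2), beside 0.00 and -0.04 over all genes. Scaling by library totals alone moved the medians of all genes to 0.12 and -0.36 and those of the splicing regulators to -0.23 and -0.52.

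The shGOLM1 libraries showed different patterns. In replicate 1 the differences were small and mostly downward: 46 of the 52 lay below the shscramble mean, beside 7055 of the 14166 genes tested. Only HNRNPDL and SRSF7 were at least 2-fold lower there, and only SRPK3 at least 2-fold higher, where 5.81% and 13.7% of all genes were. Taken alone against shscramble, replicate 1 gave 29 of the 52 called lower and 0 called higher by edgeR, with 24.1% and 20.4% of all genes called in these directions. In replicate 2 the differences were large and went both ways, with 28 of the 52 below the shscramble mean and 24 above. There 6 of the 52 were at least 2-fold higher (CLK1 to CLK4, RSRP1 and SRSF5) and 11 at least 2-fold lower, where 23.6% and 25.1% of all genes were. Taken alone, replicate 2 gave 15 called higher and 25 called lower, with 33.3% and 34.1% of all genes called. The shGOLM1 libraries lay on opposite sides of the shscramble mean for 24 of the 52, where 40.7% of all genes did so. With library totals alone the sign of 5 of the 52 switched in replicate 1, CLK1 and RSRP1 among them, and of 9 in replicate 2.

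**Figure D2:**
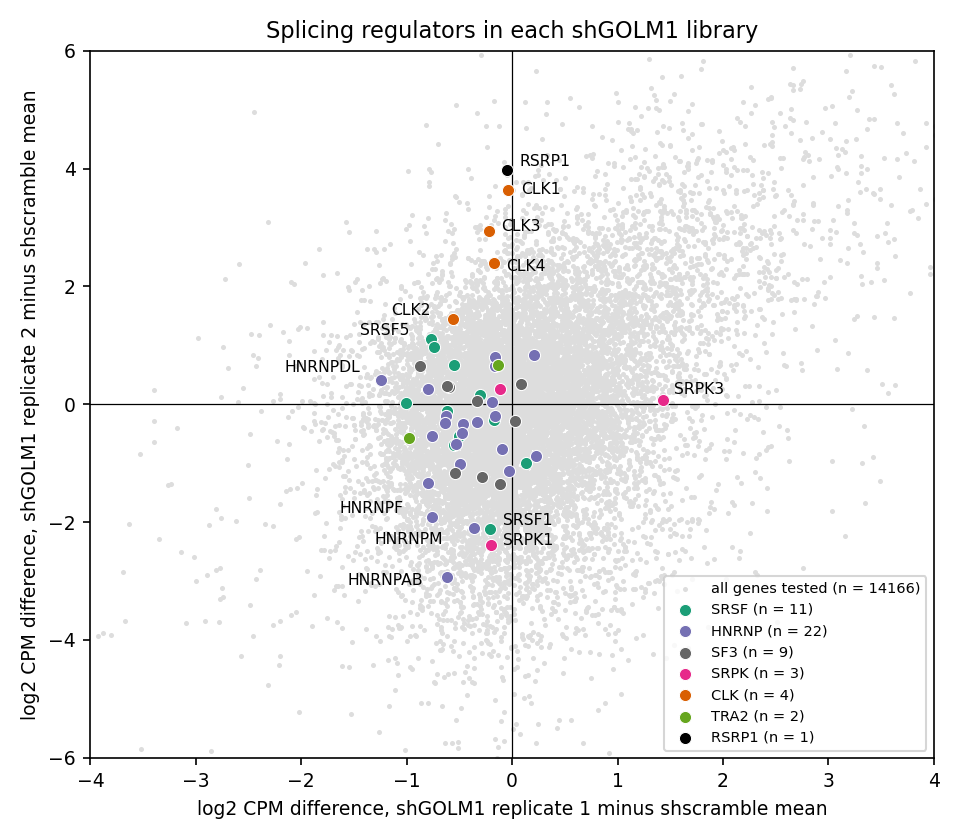
Log2 CPM difference from the shscramble mean in shGOLM1 replicate 1 (x axis) and replicate 2 (y axis), with the 52 tested splicing regulators coloured by family and all 14166 tested genes in grey (115 genes fall outside the axes). Most coloured points lie left of 0 on the x axis, and RSRP1 and the CLK genes are the highest coloured points on the y axis.

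The scale of the difference between replicates bears on every value. The median absolute log2 difference between the replicates over the 52 genes was 0.09 in shscramble and 0.85 in shGOLM1, beside 0.15 and 0.95 over all genes. Over these 52 genes the log2 CPM of the shscramble libraries had a Pearson correlation of 0.998. The correlation of shGOLM1 replicate 1 with the shscramble libraries was 0.984 and 0.984, and that of replicate 2 was 0.799 and 0.804. The points share libraries and gene lengths, and genes are not independent replicates.

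Among the SR proteins, the most abundant transcripts per length in shscramble were SRSF3 and SRSF2, at means of 101 and 98.6 FPKM. SRSF3, which also links splicing to RNA export (ENSG00000112081, chromosome 6, 36594353 to 36605600), was at 752 and 695 CPM in shscramble, against 492 and 450 CPM in shGOLM1. Both shGOLM1 libraries were lower, with a log2 fold change of -0.62 (SE 0.31, edgeR adjusted p = 0.482). SRSF10, an SR protein active as a repressor when dephosphorylated, was at 231 and 224 CPM against 160 and 157 CPM, with the same ordering and with close values in both shGOLM1 libraries. With either shGOLM1 library taken alone, the log2 fold change of SRSF3 was -0.57 in replicate 1 and -0.73 in replicate 2. That of SRSF10 was -0.52 and -0.59. Both fits use the same shscramble pair.

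SRSF1, the founding SR protein and a target of SRPK1 (chromosome 17, 58003360 to 58007346), was at 239 and 262 CPM in shscramble, against 217 and 57.4 CPM in shGOLM1. The groups did not overlap, yet the difference was carried by replicate 2, which was 4.37-fold below the shscramble mean. The log2 fold change was -0.87 (SE 0.69, edgeR adjusted p = 0.615). SRSF2, which binds purine- and pyrimidine-rich exon elements alike, was at 302 and 299 CPM against 196 and 279 CPM, lower in both shGOLM1 libraries but by 0.62 and 0.11 on the log2 scale. SRSF9 was at 103 and 90.1 CPM against 85.4 and 79.6 CPM, a difference little larger than the gap between the shscramble libraries. SRSF7, an export-linked SR protein, was at 277 and 256 CPM against 133 and 272 CPM, so only replicate 1 was low.

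SRSF4 and SRSF5 had the opposite order in the shGOLM1 libraries. SRSF5 (chromosome 14, 69726900 to 69772005) was at 199 and 190 CPM in shscramble, against 114 and 417 CPM in shGOLM1. SRSF4 (chromosome 1, 29147743 to 29181987) was at 154 and 157 CPM in shscramble, against 92.9 and 307 CPM in shGOLM1. With replicate 1 alone the log2 fold change was -0.79 for SRSF5 and -0.76 for SRSF4, and with replicate 2 alone 1.05 and 0.93. The ratio of SRSF5 to SRSF1 counts was 0.831 and 0.724 in shscramble, 0.525 in shGOLM1 replicate 1 and 7.27 in replicate 2. These were the tested SRSF genes with the highest and the lowest log2 difference in replicate 2. The size of the ratio there follows from that choice. SRSF11, named after its values were seen, had the same order, at 183 and 198 CPM against 130 and 301 CPM. The remaining tested SRSF genes, SRSF6 and SRSF8, overlapped between the groups. SRSF6 had the same order as SRSF11, at 247 and 256 CPM in shscramble against 203 and 280 CPM in shGOLM1. SRSF8 had the reverse order, at 78.2 and 81.1 CPM against 87.2 and 40.1 CPM.

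**Figure D3:**
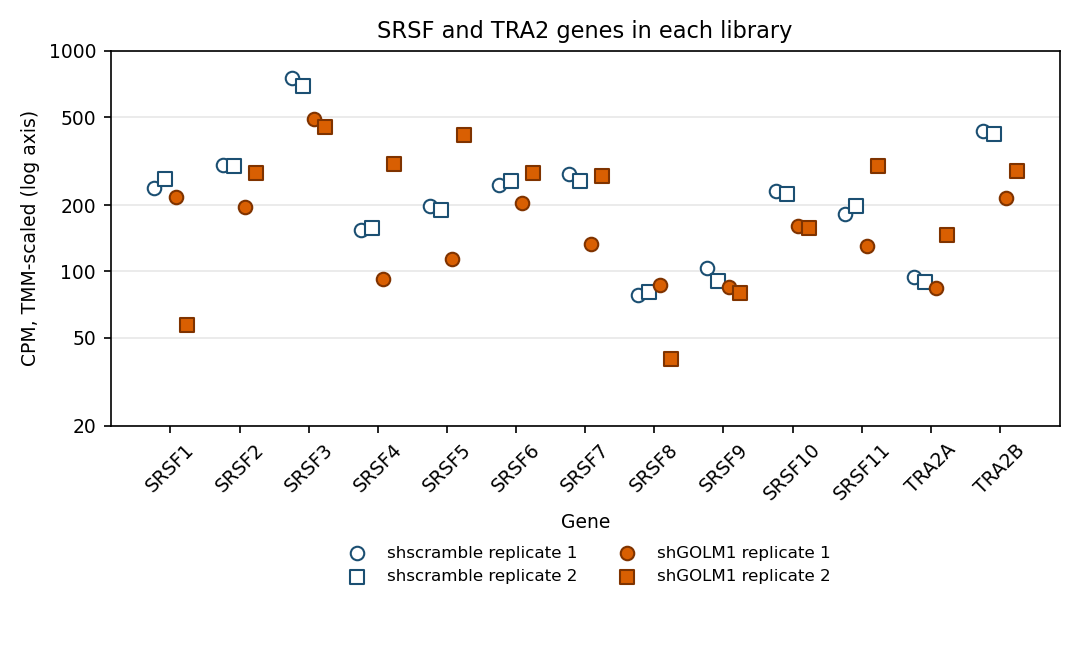
CPM on a log axis for SRSF1 to SRSF11, TRA2A and TRA2B, with 1 point per library (open symbols shscramble, filled symbols shGOLM1, circles replicate 1, squares replicate 2). For SRSF3, SRSF10 and TRA2B both filled points lie below both open points, whereas for SRSF4 and SRSF5 the filled circle is lowest and the filled square, at 307 and 417 CPM, is highest.

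The TRA2 genes encode paired SR-like activators that bind GAA-rich exons. TRA2B (ENSG00000136527, chromosome 3, 185915906 to 185938136) was at 431 and 420 CPM in shscramble, against 216 and 286 CPM in shGOLM1, lower in both libraries, with a log2 fold change of -0.76 (SE 0.32, edgeR adjusted p = 0.44). Its log2 fold change was -0.99 with replicate 1 alone and -0.62 with replicate 2 alone, each against the same shscramble pair. TRA2A was at 94.2 and 89.8 CPM against 83.8 and 146 CPM, so the groups overlapped. The ratio of TRA2A to TRA2B counts was 0.219 and 0.214 in shscramble and 0.387 and 0.510 in shGOLM1, higher in both shGOLM1 libraries. This ratio was not among the planned results. In replicate 1 the log2 difference from the shscramble mean was -0.98 for TRA2B and -0.14 for TRA2A. In replicate 2 it was -0.57 and 0.67, so only there did the genes go in opposite directions.

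The hnRNP genes were the most abundant family, taking 1.45% and 1.40% of counts in shscramble and 1.16% and 0.935% in shGOLM1. Of 22 tested, 15 had the shGOLM1 pair wholly below the shscramble pair, 1 had it wholly above and 6 overlapped, where 26.5% of all genes were wholly below and 25.2% wholly above. HNRNPA1, a shuttling protein that silences exons (ENSG00000135486, chromosome 12, 54280193 to 54287088), had the highest level per length, at a mean of 482 FPKM in shscramble. It was at 2620 and 2345 CPM in shscramble, against 2209 and 3873 CPM in shGOLM1, and the groups overlapped. Processed pseudogenes of HNRNPA1 held 709 to 807 counts per library, 0.829% to 1.05% of those of the gene. HNRNPA1P48 and HNRNPA1L2, retained among the 54, are also near copies of HNRNPA1, so their reads are uncertain.

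HNRNPA2B1, a paralog of HNRNPA1 that binds many nuclear RNAs (ENSG00000122566, chromosome 7, 26173057 to 26201529), was at 2073 and 1929 CPM in shscramble, against 1149 and 796 CPM in shGOLM1. Its log2 fold change of -1.04 (SE 0.39, edgeR adjusted p = 0.423) had the smallest p among the 52. The ratio of HNRNPA1 to HNRNPA2B1 counts was 1.26 and 1.22 in shscramble and 1.92 and 4.86 in shGOLM1, chosen after the values were seen. HNRNPF, a binder of G-rich elements (chromosome 10, 43385617 to 43409166), was at 599 and 561 CPM against 341 and 153 CPM, with a log2 fold change of -1.23 (SE 0.49, edgeR adjusted p = 0.434). HNRNPAB (chromosome 5, 178204507 to 178211163) was at 483 and 422 CPM against 295 and 59.5 CPM, 7.61-fold below the shscramble mean in replicate 2. These 3 genes were lower in both shGOLM1 libraries, and more so in replicate 2.

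HNRNPK, which binds C-rich stretches, was at 1037 and 1024 CPM in shscramble, against 731 and 512 CPM in shGOLM1. HNRNPR was at 353 and 332 CPM against 202 and 234 CPM. HNRNPH2, a relative of HNRNPF, was at 184 and 179 CPM against 131 and 129 CPM. HNRNPA2B1, HNRNPF, HNRNPAB, HNRNPK, HNRNPR and HNRNPH2 were selected for the smallest p in their family over these same libraries. With replicate 1 alone their log2 fold changes ran from -0.82 to -0.49, and with replicate 2 alone from -2.98 to -0.54. Both fits use the same shscramble pair, so lower values in each are no separate support for the selection. With both libraries none passed, with edgeR adjusted p from 0.423 to 0.531. Of the 15 tested hnRNP genes outside the rule for named genes, 9 lay wholly below the shscramble pair, 1 wholly above and 5 overlapped, with log2 differences from -1.25 to 0.22 in replicate 1 and from -2.10 to 0.84 in replicate 2. Among these, HNRNPM ended lowest in replicate 2, at 917 and 834 CPM in shscramble and 683 and 205 CPM in shGOLM1. HNRNPH1, the paralog of HNRNPH2, was the one higher in both, at 462 and 444 CPM against 522 and 810 CPM (log2 fold change 0.56, SE 0.37, edgeR adjusted p = 0.562). These 2 genes were chosen after their values were seen.

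**Figure D4:**
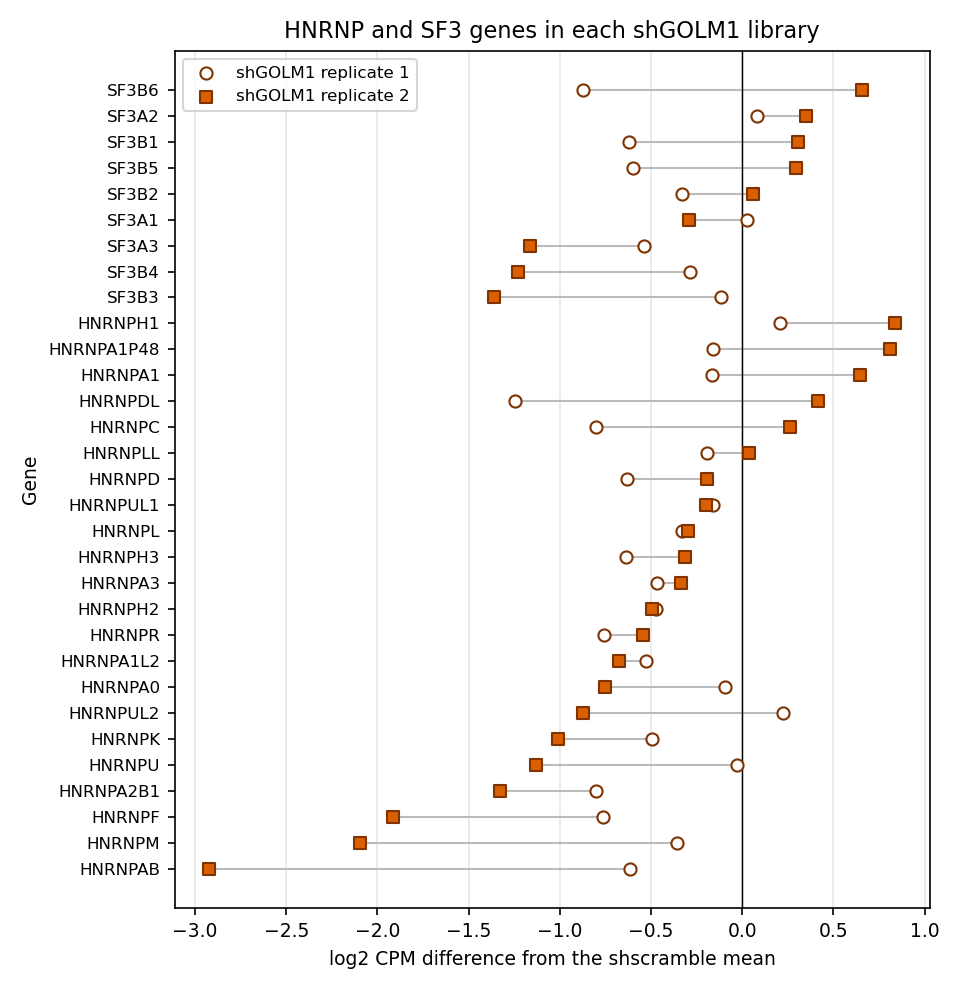
Log2 CPM difference from the shscramble mean for the 22 tested HNRNP genes and the 9 SF3A and SF3B genes, with open circles for shGOLM1 replicate 1, filled squares for replicate 2 and a line joining them. HNRNPAB, HNRNPM and HNRNPF reach furthest left in replicate 2, and SF3B6 spans 0, from -0.87 to 0.66.

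The SF3A and SF3B genes of the branch-point complexes went in both directions. Of the 9, the shGOLM1 pair lay wholly below the shscramble pair for 3 and wholly above for 0, and 6 overlapped. The 3 of 9 are near the 26.5% of all genes that lay wholly below. The median log2 difference of the 9 was -0.33 in replicate 1 and 0.06 in replicate 2. SF3A3 (ENSG00000183431, chromosome 1, 37956975 to 37990921) was at 197 and 191 CPM in shscramble, against 134 and 86.5 CPM in shGOLM1, with a log2 fold change of -0.82 (SE 0.34, edgeR adjusted p = 0.44). SF3B4 was at 233 and 226 CPM against 188 and 97.8 CPM, and SF3B3 at 317 and 338 CPM against 301 and 127 CPM. For SF3B3 the gap from replicate 1 to the nearer shscramble library was smaller than the gap between the shscramble libraries, and replicate 2 carried the difference.

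SF3B5, the small subunit with the highest level per length in this family at a mean of 140 FPKM, was at 109 and 86.2 CPM in shscramble, against 64.0 and 119 CPM in shGOLM1. SF3B6, which contacts the branch-point adenosine, was at 77.4 and 69.6 CPM against 40.1 and 116 CPM, low in replicate 1 and high in replicate 2. SF3A1, SF3A2 and SF3B2, larger subunits of these complexes, did not pass with all libraries (edgeR adjusted p from 0.765 to 0.883). SF3A1 was at 202 and 202 CPM against 206 and 165 CPM. SF3A2 was at 80.3 and 67.1 CPM against 77.7 and 93.7 CPM, and SF3B2 at 337 and 344 CPM against 271 and 355 CPM. SF3B1, the large scaffold subunit, named outside the rule and after its values were seen, was at 465 and 492 CPM against 311 and 591 CPM.

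Some members share exon sequence with other annotated genes. In GENCODE 29, 27 of the 54 share at least 1 exon base with another gene, and 6 share over 20% of their exon bases: SRSF1, SRSF2, SRSF9, SRPK3, HNRNPUL2 and HNRNPUL2-BSCL2. SRSF2 shares 36.7% with genes on the opposite strand, mostly MFSD11, and SRSF9 shares 46.2%, mostly GATC. SRSF1 shares 56.6% with genes on its own strand, mostly the unnamed gene AC015813.2. Counting by strand is a setting not given in the sources used here, so reads of overlapping genes cannot be told apart and single values of these genes are less certain. CLK1, CLK2 and HNRNPA1 share no exon base, RSRP1 shares 6.26% on its own strand and 5.06% on the other, CLK3 shares 6.65% and CLK4 2.03%.

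Beyond the families, 101 further genes of splicing and of nonsense-mediated decay (NMD, which degrades unproductive splice forms) were read from the same fit. edgeR called 0 of them, with 10 at an unadjusted p under 0.05 as lower and 0 as higher, where 3.58% and 8.20% of all genes were, and limma-voom called 0. The shGOLM1 pair lay wholly below the shscramble pair for 38 of the 101 and wholly above for 12, where 26.5% and 25.2% of all genes did so. The median log2 difference was -0.44 in replicate 1 and -0.18 in replicate 2. By part, 23 of 47 core snRNP and U2 genes lay wholly below and 3 wholly above. Among these 3 is U2AF1, whose reads are uncertain, as described at the end. Of 44 other regulators, 13 lay wholly below, which is near the share over all genes, and 8 wholly above. Of 10 NMD genes, 2 lay wholly below.

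The 6 genes with the smallest p among the lower ones were SNRPD1, PHF5A, MAGOH, U2AF2, DDX23 and PRMT1, each with an edgeR adjusted p of 0.42. SNRPD1, a Sm core protein, was at 187 and 167 CPM in shscramble, against 72.3 and 72.4 CPM in shGOLM1. PHF5A, a subunit of SF3B, was at 65.3 and 56.2 CPM against 26.4 and 32.2 CPM. U2AF2, which reads the polypyrimidine tract, was at 356 and 328 CPM against 170 and 185 CPM. MAGOH, of the exon junction complex, was at 47.9 and 39.2 CPM against 15.3 and 22.7 CPM, and the arginine methyltransferase PRMT1 at 440 and 420 CPM against 232 and 222 CPM. DDX23, a helicase of the U5 particle, was at 303 and 293 CPM against 149 and 76.3 CPM.

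In the other direction the genes described are SRRM2, DDX39B, RBM5, DYRK1A and NKTR, with edgeR adjusted p from 0.423 to 0.48. SRRM2, a scaffold of nuclear speckles, was at 376 and 495 CPM in shscramble, against 779 and 840 CPM in shGOLM1. DDX39B, a helicase of splicing and RNA export, was at 60.0 and 71.3 CPM against 100.3 and 595 CPM, and was the one gene of the 101 called by DESeq2 (adjusted p = 0.0376). The kinase DYRK1A, which also acts on splicing factors, was at 47.2 and 47.3 CPM against 67.9 and 71.9 CPM. RBM5 was at 38.8 and 46.4 CPM against 55.0 and 122 CPM, and NKTR at 43.6 and 58.1 CPM against 69.0 and 96.3 CPM. For these 5 genes the lower shGOLM1 library exceeded the higher shscramble one.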

How the data were processed

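RNA-seq libraries of 4 SUP-M2 samples were made from 1.3 ug of total RNA each, per the labels' protocols. Aligner, counting tool and strand setting: not given in the sources used here. Mouse builds (GRCm38, mm10) are named in the submitters' processing notes, but all 58735 gene identifiers are those of human GENCODE 29, so coordinates are on GRCh38. The deposited counts are whole numbers per gene in columns headed as counts, and were taken as not normalized. FPKM values were deposited by the authors and were used only to compare levels between genes. The authors also deposited a mean normalized signal per group, which was not used, and a log2 fold change with a p-value and an adjusted p-value, with the tool not named. For the splicing regulators those log2 fold changes nearly equalled the DESeq2 values here.

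Samples were grouped by title. The test was edgeR 4.0.16 (quasi-likelihood, TMM, filterByExpr, no covariate, two-sided) under R 4.3.3 with Benjamini-Hochberg adjustment over 14166 genes and a threshold of 0.05. CPM use TMM-scaled totals, with factors of 1.02, 1.05, 1.12 and 0.828. Log2 differences use a prior count of 2. With 2 against 2 libraries a permutation test cannot go below p = 0.333, so none was run. DESeq2 1.42.0, limma 3.58.1 (voom), other scalings and filters, a replicate block and leaving out each library were alternatives. The procedure was tested on simulated data in which both groups had the spread of the shscramble pair. The median absolute log2 difference between replicates over all genes was 0.15 in shscramble and 0.95 in shGOLM1. The simulation therefore cannot show how the test behaves at the spread of the shGOLM1 pair.

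The splicing regulators, lists and tests were chosen with earlier results of these data known. Genes with values in every library were CLK1 to CLK4, RSRP1 and both TRA2 genes, and in each other family the gene highest in FPKM and up to 6 with the smallest p at 1 CPM or more. Up to 4 genes with opposite signs of at least 0.5 in the shGOLM1 libraries were added, and from the 101 further genes up to 6 in each direction. One gene that this rule selects is not reported here. Promoters are from RefSeq (GRCh38.p14), where 49 of the 54 matched. Figures were drawn with matplotlib 3.10.9.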

Additional observations from a re-analysis of the deposited data

How the results depend on the processing

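The counts of calls depended on the test and on single libraries. Over all genes, edgeR called 175 higher and 17 lower with no filter on low counts, and DESeq2 called 514 and 40. Leaving out 1 library at a time gave 16 to 5078 called higher and 4 to 5212 lower over all genes, 0 to 15 and 0 to 29 over the splicing regulators, and 0 to 28 and 0 to 61 over the 101 further genes. DESeq2 called 2 splicing regulators and 1 further gene higher. The log2 fold change of GOLM1 was -1.66 to -1.63 with 1 library left out, and passed only without a shGOLM1 library. With library totals alone, 2 splicing regulators had the shGOLM1 pair wholly above the shscramble pair, and the medians were -0.23 and -0.52 in replicates 1 and 2. Without 1 shscramble library, 16 or 17 of all genes were called higher. Without shGOLM1 replicate 2, 3087 were, and without shGOLM1 replicate 1, 5078. The cause of these shifts was not tested.

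The labels tie the replicate numbers to no shared batch, and the deviations of the same-numbered libraries from their group means correlated at -0.0977 over genes. With the replicate number as a block, edgeR called 169 genes higher and 34 lower over all genes and 0 splicing regulators. That block reversed SF3B6 to -0.11 on the log2 scale.

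SF3B6 was also reversed by library totals (-0.11), by no filter (-0.0056) and in limma-voom (-0.14), SF3B5 by the filter at 5 CPM (0.023) and SRPK2 by library totals (-0.031). None of these passed in any of those settings. With 1 library left out, the log2 fold change ran from -0.057 to 3.58 for CLK1, -0.58 to 1.39 for CLK2, -0.24 to 2.89 for CLK3 and -0.20 to 2.35 for CLK4. It ran from -0.066 to 3.92 for RSRP1, -0.19 to 0.59 for HNRNPA1, -0.34 to 0.011 for SF3A1, -0.35 to 0.012 for SF3B2, -0.63 to 0.23 for SF3B5 and -0.89 to 0.61 for SF3B6. For SRPK2 it ran from -0.13 to 0.21, for SRSF4 from -0.76 to 0.93, for SRSF5 from -0.79 to 1.05 and for TRA2A from -0.15 to 0.62.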

Other observations

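The 7 genes of the Sm core (SNRPB, SNRPD1, SNRPD2, SNRPD3, SNRPE, SNRPF and SNRPG), the ring of proteins that encircles spliceosomal RNAs, were picked from the further genes after their values were seen and are given with no test. All 7 were below the shscramble mean in shGOLM1 replicate 1, by -1.59 to -0.75 on the log2 scale. In replicate 2 they ran from -1.29 to 0.59, with 4 below and 3 above. Of the 47 core snRNP and U2 genes, which include these 7, 39 were below in replicate 1 and 31 in replicate 2. Of the 14166 genes tested, 7055 and 7216 were. SNRPE (224 and 155 CPM) and SNRPG (77.2 and 50.3 CPM) also differed between the shscramble libraries. SNRPD1 stood at nearly the same level in both shGOLM1 libraries.

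U2AF1, the partner of U2AF2, was counted at 295 and 296 reads in shscramble and at 334 and 306 in shGOLM1. A second gene listed on chromosome 21, U2AF1L5, held 636 and 153 reads in shscramble and 137 and 901 in shGOLM1. U2AF1L5 is a near-identical copy in the GRCh38 assembly, so the split of reads between these genes is uncertain and neither value gives the level of U2AF1 alone.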
